A study of Homo sapiens with 4 samples.

Results

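The GADD45 genes are small stress sensors, named for growth arrest and DNA damage, and their response to embelin was followed in A549 cells, a human lung adenocarcinoma line. Embelin is a plant benzoquinone known as an inhibitor of XIAP, a protein that blocks caspases. The members were GADD45A, GADD45B and GADD45G and, by its name, GADD45GIP1. They were found as non-control probes that carry one of these names or the RefSeq transcript of one of these genes, which gave 5 probes for the 4 genes, among 50238 probes with 30970 gene or transcript names on the array. GADD45B had 2 probes and each other gene had 1.

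RNA was measured on 4 single-colour arrays on 1 slide, 2 of untreated control cells (0 µM) and 2 of cells given embelin at 15 µM, all at 4 h. Both groups had been moved beforehand to medium with less serum, and the labels name no vehicle for the control cells. The array experiment was made to look for pathways that change early in the apoptosis that embelin causes. The labels do not say whether the 2 replicates of a group were separate cultures, so that p-values measure only the spread between these samples, which may be technical.

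GADD45A, GADD45B and GADD45G encode acidic proteins without enzyme activity of their own that work by binding partners. They bind and activate the kinase MTK1 (MAP3K4), which leads to p38 and JNK, and they bind PCNA, p21 and the complex of CDK1 with cyclin B1, through which they restrain the cell cycle. GADD45A is a classical p53 target, GADD45B is induced through NF-kB and TGF-beta, and GADD45G is induced by cytokines and is low or silent in many tumours. GADD45GIP1, also called CRIF1, is no homologue of these. It was named as a protein that binds them, and it is a subunit of the large mitochondrial ribosome.

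The sequences of the probes are shown because each gene's value rests on a single stretch of its transcript, and because GADD45B was read at a pair of different stretches. They are written in lower case, 5′ to 3′, as in the scanner files, and the second GADD45B probe is given by its first 30 of 60 bases.
GADD45A, probe GT_44k_23_P23221: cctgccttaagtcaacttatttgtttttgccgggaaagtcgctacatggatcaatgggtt
GADD45B, probe GT_44k_23_P142506: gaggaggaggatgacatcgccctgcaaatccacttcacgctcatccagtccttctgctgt
GADD45B, probe GT_44k_24_P239606: tgagagcgagatgggaagcatagatatcta
GADD45G, probe GT_44k_24_P120934: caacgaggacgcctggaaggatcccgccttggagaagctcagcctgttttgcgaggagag
GADD45GIP1, probe GT_44k_23_P39019: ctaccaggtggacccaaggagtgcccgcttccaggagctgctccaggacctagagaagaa

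The probes of the 4 genes were distinct in sequence. The longest run of bases that any of them shared with a probe of another member was 8 bases, between GADD45G and GADD45GIP1, and both GADD45B probes shared no more than 4 bases with each other. No probe of any other gene on the array shared 20 bases or more with a member's probe on either strand, and the longest such run was 15 bases. Base composition differed, with G and C making up 36.7% of the second GADD45B probe, 43.3% of the GADD45A probe, 55% of the first GADD45B probe and 60% of both others.

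**Figure D1:**
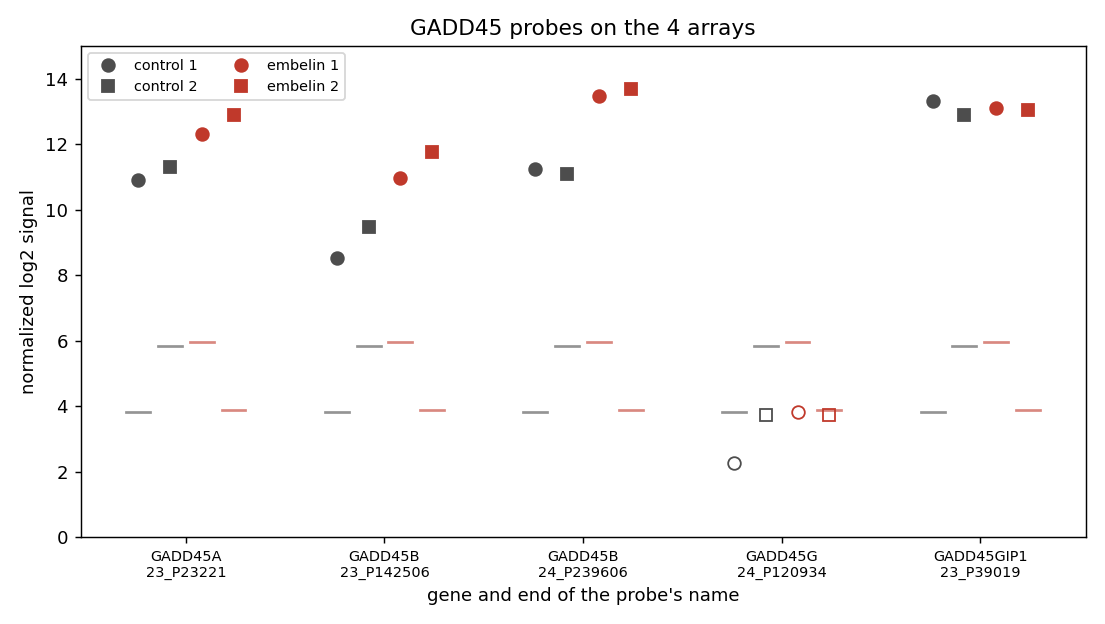
Normalized log2 signal of the 5 GADD45 probes on each of the 4 arrays (control in grey, embelin in red, replicate 1 as circles, replicate 2 as squares; open symbols are not well above background). The short lines mark the lowest signal that was well above background on that array, and the embelin arrays lie above both control arrays for GADD45A and for both GADD45B probes, while those of GADD45GIP1 lie between them.

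GADD45B was higher in the embelin cells at both of its probes, by 2.41 on the log2 scale (5.31-fold) at one and 2.38 (5.19-fold) at the other. GADD45A was higher by 1.51 (2.84-fold). GADD45GIP1 differed by -0.05, and GADD45G was not well above background on any array. Of the 4 member probes that were tested, 1 passed the adjustment for all probes (limma, Benjamini-Hochberg adjusted p under 0.05), the second probe of GADD45B. Over all 26145 probes tested, 1.08% passed in either direction and 0.83% were higher with embelin. In these bulk samples more RNA per cell and more cells with that RNA cannot be told apart.

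At the second GADD45B probe, P239606, the normalized log2 signal was 11.25 and 11.09 in the control samples, against 13.47 and 13.70 after embelin. Both embelin arrays were above both control arrays, with differences between single arrays of 2.21 to 2.60. The log2 fold change was 2.41 with a standard error of 0.20 and a 95% interval of 1.88 to 2.94 (n = 2 arrays a group, limma adjusted p = 0.0320). The call was not kept by every way of processing: the adjusted p was 0.219 with the pairs of like background described below as a block and 0.530 without the filter on dim probes, and ran from 0.0761 to 0.198 when any 1 array was left out.

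At the first GADD45B probe, P142506, the normalized log2 signal was 8.53 and 9.46 in untreated cells, against 10.98 and 11.76 after embelin. The groups did not overlap here either, but the arrays of a group lay further apart. The control arrays differed by 0.93 at this probe and by 0.16 at the other, and the embelin arrays by 0.78 and 0.23. The log2 fold change of 2.38 therefore had a standard error of 0.45 and a 95% interval of 1.16 to 3.59, and it did not pass (limma adjusted p = 0.104). The change at the second probe minus that at the first was 0.03 on the log2 scale, which an exact two-sided permutation test of the difference within arrays did not separate from 0 (p = 1), while the smallest p that 2 arrays against 2 allow is 0.33.

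For GADD45A the normalized log2 signal read 10.89 and 11.30 in the controls, and 12.31 and 12.89 with embelin. Both embelin arrays were higher than both control arrays, by 1.01 to 2.00. The log2 fold change was 1.51 with a standard error of 0.30 and a 95% interval of 0.71 to 2.31, with an unadjusted limma p of 0.00578 and an adjusted p of 0.111. GADD45A thus passed a threshold of 2-fold and unadjusted p under 0.05 by limma and did not pass the adjustment. The methods name that threshold with another test, the methods' t-test. Run on the values as processed and filtered here, that test did not pass GADD45A (unadjusted p = 0.0510). The study's own processing was not repeated, so this is no check of its calls.

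By limma that threshold was passed by 3 of the 4 tested member probes, all of them higher, and these were the GADD45A probe and both GADD45B probes. By the methods' t-test it was passed by 1, the second GADD45B probe, while the first had an unadjusted p of 0.0597. Over all probes 8.36% passed it in either direction and 4.58% were higher. The groups did not overlap at the same 3 member probes, beside 49.7% of all probes with a value on every array. Ranked by log2 fold change over all tested probes, 1.17% of probes lay above the second GADD45B probe, 1.24% above the first, and 3.56% above GADD45A.

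**Figure D2:**
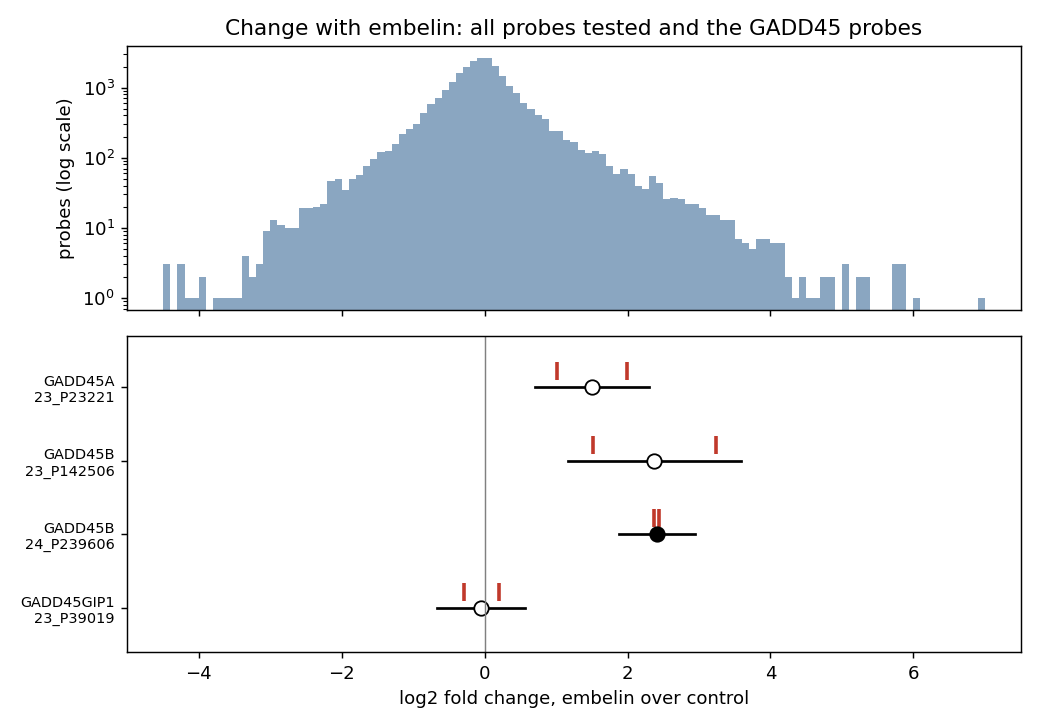
Upper panel, number of tested probes (log axis) by log2 fold change of embelin over control. Lower panel, log2 fold change of the 4 tested GADD45 probes with 95% limma intervals (filled, adjusted p under 0.05). Red ticks give the difference within each pair of arrays with a like share of probes well above background. They lie at 1.52 and 3.23 for the first GADD45B probe and at 2.37 and 2.44 for the second.

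For GADD45GIP1, the mitochondrial ribosome subunit, the normalized log2 signal read 13.33 and 12.90 in the controls, and 13.09 and 13.04 with embelin. Both embelin arrays lay between the control arrays, so that the groups overlapped. The log2 fold change was -0.05 with a standard error of 0.23 and a 95% interval of -0.66 to 0.57 (limma adjusted p = 0.949). The interval leaves room for a change of up to 0.57 upward or 0.66 downward, and 50.2% of all tested probes had a higher log2 fold change.

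For GADD45G the normalized log2 signal read 2.28 and 3.72 in the controls, and 3.82 and 3.73 with embelin. The lowest signals well above background on the same arrays were 3.83, 5.85, 5.97 and 3.89, and the probe lay under that level on all 4. The scanner software had put a substitute value in place of the reading on the second control array and the first embelin array. On the first control array and the second embelin array it marked the signal as positive and significant, but not as well above background. No fold is given for GADD45G, and a level under that mark was not taken as measured.

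The arrays differed in the share of probes well above background, in a way that crossed the groups. Probes well above background made up 66.7% and 66.4% of all probes on control 1 and embelin 2, and 50.3% and 51.2% on control 2 and embelin 1. The standard deviation of the negative controls was 2.55 and 2.97 on the first pair, against 4.59 and 5.29 on the second. The local background itself was alike, at 20 to 27 for the member spots on all 4 arrays. The name pairs of like background, used here for short, refers to that share only. Control 1 and embelin 2 stood at positions 4 and 3 on the slide, and control 2 and embelin 1 at positions 1 and 2. The pairs and the place on the slide therefore cannot be told apart. Between control 1 and embelin 2, GADD45A differed by 2.00, the first GADD45B probe by 3.23, the second by 2.44 and GADD45GIP1 by -0.29. Between control 2 and embelin 1 the same differences were 1.01, 1.52, 2.37 and 0.20. GADD45A and GADD45B were higher with embelin within both pairs, by less in the second, and GADD45GIP1 had opposite signs. The part of the share detected in these sizes was not tested.

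The members' changes were set against each other within each array, for GADD45B by its second, brighter probe. The change of GADD45B exceeded that of GADD45GIP1 by 2.45 on the log2 scale, that of GADD45A exceeded it by 1.55, and GADD45A minus GADD45B was -0.90. Each exact two-sided permutation p was 0.33 before and after adjustment over the 3 pairs. That is the smallest p that 2 against 2 arrays can give, so the test could not separate the members of any pair.

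The genes whose signal over the 4 arrays lay closest to each member's, after each was centred on its own mean, were sought among 22415 probes well above background on all arrays. For GADD45A the closest named gene was ISCA1, an iron-sulphur cluster assembly protein, with a root mean square difference of 0.051 on the log2 scale, behind a pair of transcripts that the files give only by database identifiers. For the first GADD45B probe they were CCNG2, an unconventional cyclin, at 0.093, then TRIB3, a stress-induced pseudokinase, at 0.115 and BBC3, which encodes the apoptosis protein PUMA, at 0.161. For the second they were POU5F1, the pluripotency factor OCT4, at 0.041, ERO1A, an oxidase of the endoplasmic reticulum, at 0.047 and KDM3A, a histone demethylase, at 0.051. For GADD45GIP1 they were ANKRD13A at 0.011, TCOF1, a nucleolar protein, at 0.013 and SMC6, a subunit of a chromosome maintenance complex, at 0.016. TRIB3 and BBC3 were matched by probes that were not their brightest, at log2 fold changes of 2.51 and 2.24. Their brightest probes differed by 1.97 and -0.11. The neighbours of both GADD45B probes were different genes. With 4 arrays such likeness is a description only.

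The promoters of 3 of the 4 members were found in the RefSeq table used here (GRCh38.p14), each as 250 bases before to 50 bases after the start of the gene. The 150 bases before the start are shown for GADD45B, which was higher with embelin, and for GADD45G, which was not well above background. Capitals mark the E-box, with the letters CACGTG, the CCAAT box, spelt as its name, and the TATA box, searched for as TATAAA, each on both strands.
GADD45B, chr19:2475977-2476126, plus strand: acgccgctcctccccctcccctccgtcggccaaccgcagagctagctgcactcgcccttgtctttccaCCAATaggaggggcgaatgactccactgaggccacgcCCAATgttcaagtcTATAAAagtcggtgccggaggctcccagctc
GADD45G, chr9:89604862-89605011, plus strand: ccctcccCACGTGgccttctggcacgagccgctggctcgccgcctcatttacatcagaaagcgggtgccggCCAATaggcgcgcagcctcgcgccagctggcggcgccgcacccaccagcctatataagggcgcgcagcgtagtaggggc

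GADD45B had a TATAAA that began 31 bases before its start and CCAAT at 82 and 45 bases before it. GADD45G had CCAAT at 79 bases and CACGTG at 143 bases before its start. It had no TATAAA, but the stretch shown holds the similar letters TATATAAG, which that search does not match. A TATA box of another spelling is therefore not excluded for GADD45G. GADD45B also had CACGTG at 168 bases before its start, outside the stretch shown. GADD45GIP1 (chr19:12957174-12957473, minus strand) had a TATAAA at 138 bases and GGGCGG (GC box) at 113 bases, and neither CCAAT nor CACGTG. Of all 35116 promoters of the table, 34.6% held CCAAT, 7.26% CACGTG, 11.5% TATAAA and 45.0% GGGCGG. The letters TGANTCA (AP-1), TGACGTCA (CRE) and TGATGNAAT (ATF4 with C/EBP) were in none of the 3 windows, beside 7.71%, 1.85% and 0.991% of all promoters. These matches are descriptions of the letters only.

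Among the genes that regulate transcription of the GADD45 family, 1 of 19 tested passed the adjustment, and it was higher. It was EGR1, an immediate early factor, with a log2 fold change of 3.51 (SE 0.24, limma adjusted p = 0.0285). Only 1 of the 2 control arrays measured it well above background, so it passed the filter only through the embelin group, where it was high. RELA, a subunit of NF-kB, differed by 1.03 (adjusted p = 0.117) and FOXO3, a forkhead factor, by 1.03 (adjusted p = 0.249). ATF4, chosen after its value was seen, differed by 0.52 (adjusted p = 0.245). The list's median was -0.06, the same to 2 decimals as the median of all 17649 genes, each by its brightest probe. Over all of those genes 0.89% were called higher and 0.3% lower.

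Of the kinases from MTK1 to p38 and JNK, which the GADD45 proteins act through, none of 9 tested passed by limma after adjustment, and 3 had an unadjusted p under 0.05, beside 18.6% of all genes. The list's median was -0.30. The 3 largest differences were 0.83 for MAPK8, the kinase JNK1 (adjusted p = 0.124), -0.73 for MAPK14, the kinase p38 alpha (adjusted p = 0.194), and -0.63 for MAP2K6, an activator of p38 (adjusted p = 0.186). A second MAPK14 probe differed by 0.40, the other way. The direct partner MAP3K4, also chosen after its value was seen, differed by -0.30 (adjusted p = 0.618). MAP2K7, MAPK10 and MAPK13 were not well above background on both arrays of either group. These values are RNA levels, and the activity and phosphorylation of the kinases were not measured on the arrays.

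The partners in the cell cycle and in DNA repair held no called gene among 13 tested by limma, 8 of them with an unadjusted p under 0.05 (18.6% of all genes), and the median was -0.35. TET2, which oxidizes methylated cytosine, differed by 2.35 (adjusted p = 0.0676) with 1 of 2 control arrays well above background. It too passed the filter only through the embelin group, where it was high. CDC25C, a phosphatase that activates CDK1, differed by -1.32 (adjusted p = 0.0856), and AURKA, a mitotic kinase that GADD45A restrains, by -1.31 (adjusted p = 0.0763). The direct partners named above were added after their values were seen. CDKN1A, which encodes p21, differed by 1.25 (adjusted p = 0.0719) and CCNB1, the gene of cyclin B1, by -0.90 (adjusted p = 0.153). CDK1 differed by -0.52 (adjusted p = 0.258) and PCNA by -0.32 (adjusted p = 0.439).

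The other genes named for growth arrest and DNA damage were counted next, and 2 of 4 were called higher, beside 0.89% of all genes. DDIT3, which encodes the stress factor CHOP, rose by 4.24 (SE 0.18, adjusted p = 0.0255), and PPP1R15A, known as GADD34 and a regulator of the phosphatase that reverses eIF2 alpha phosphorylation, rose by 3.27 (SE 0.26, adjusted p = 0.0309). DDIT4, an inhibitor of mTOR signalling, differed by 1.75 (SE 0.21, adjusted p = 0.0554) and DDIT4L by -0.59 (adjusted p = 0.248). The median of the 4 was 2.51. Despite the shared name, DDIT3 and PPP1R15A are not homologues of the GADD45 family.

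Of the p53 targets, 2 of 22 tested were called, both higher, beside 0.89% of all genes called higher, and the median was 0.32. SESN2, a sestrin, rose by 3.01 (SE 0.21, adjusted p = 0.0285), and GDF15, a secreted stress cytokine, rose by 2.08 (SE 0.21, adjusted p = 0.0461). PMAIP1, which encodes the apoptosis protein NOXA, differed by 2.48 (adjusted p = 0.0548). SESN2 was counted in the ATF4 list too. For BBC3 the brightest probe differed by -0.11, and its other probes by 2.45 (adjusted p = 0.0306) and 2.24 (adjusted p = 0.0713), so that the probes of that gene disagreed.

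Of the targets of ATF4, the factor of the amino acid and endoplasmic reticulum stress response, 6 of 14 tested were called, all higher, and the median was 1.46. ATF3 rose by 5.71 (SE 0.20, adjusted p = 0.0255), STC2, a secreted glycoprotein, by 5.25 (SE 0.30, adjusted p = 0.0258), and DDIT3 and SESN2 by the values above. TRIB3 and CHAC1 were the other called genes of the list, outside the 4 largest, at 1.97 and 1.82. All 14 had a positive log2 fold change. The lowest were 0.04 for PSAT1, 0.13 for PHGDH and 0.15 for SLC7A11, none of them called. Over all 17649 genes, 0.89% were called higher and 7747 had a positive log2 fold change.

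GADD45GIP1 was compared with the rest of the ribosome that it belongs to. Of 49 other large mitochondrial ribosome genes, none passed the adjustment by limma, and 2 had an unadjusted p under 0.05, beside 18.6% of all genes. Their log2 fold changes ran from -0.71 for MRPL50 to 0.39 for MRPL54, with 15 above 0 and 34 below and a median of -0.07, and GADD45GIP1, at -0.05, lay within that range. The next largest differences were -0.58 for MRPL34 and -0.53 for MRPL51. MRPL54 is named here as the upper end of the range.

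**Figure D3:**
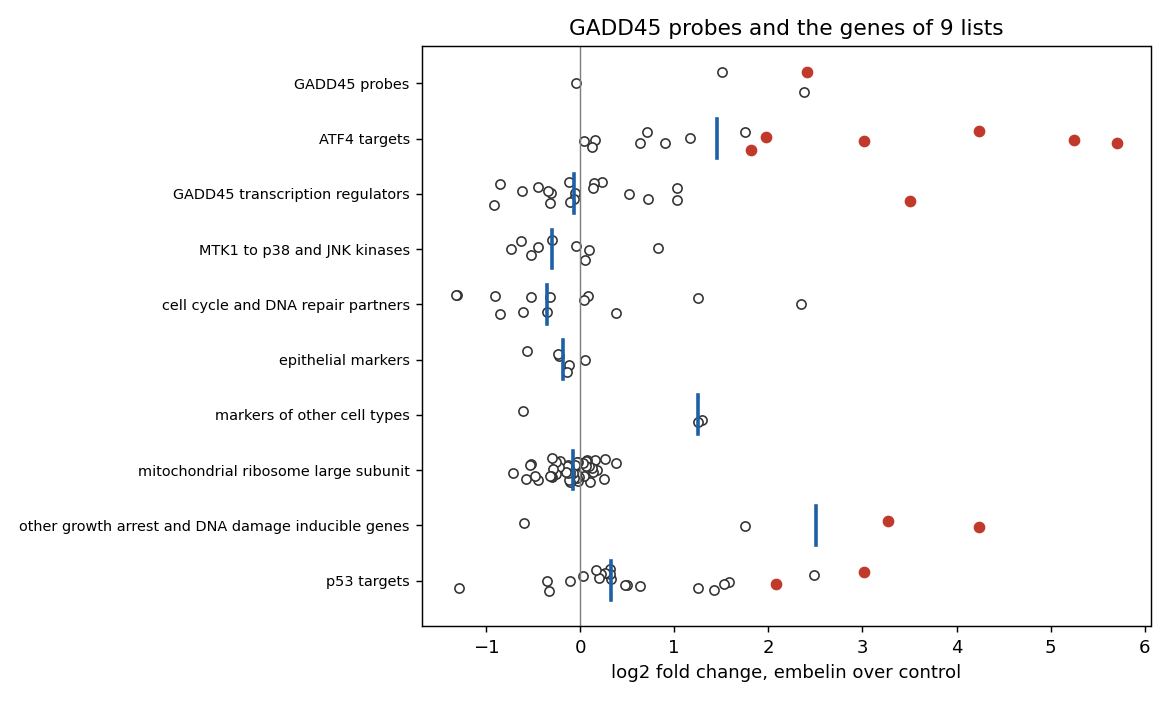
Log2 fold change of embelin over control for the 4 tested GADD45 probes (top) and for each tested gene of 9 lists, by its brightest probe (filled red, adjusted p under 0.05; blue bar, median of the list). Called genes stand in 4 of the lists, the ATF4 targets, the transcription regulators, the other growth arrest and DNA damage inducible genes and the p53 targets, and no listed gene was called lower.

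The cells carried the markers of an epithelial line. All 6 epithelial markers (KRT7, KRT8, KRT18, KRT19, EPCAM and CDH1) were well above background on all 4 arrays and none was called by limma, with 0 at an unadjusted p under 0.05 and log2 fold changes from -0.56 to 0.05. The 3 with the largest differences were KRT8 at -0.56, KRT7 at -0.24 and CDH1 at -0.22. Of 7 markers of other cell types, the endothelial CDH5 and PECAM1, the fibroblast gene DCN and the leukocyte gene PTPRC did not pass the filter. Among the others, COL1A1 and CD14 were well above background on all 4 arrays. Their mean log2 signals in the controls were 6.33 and 9.54, beside 9.69 for EPCAM, the lowest of the epithelial markers. None of these other markers was called by limma, and 2 had an unadjusted p under 0.05. COL1A1, a collagen gene, differed by 1.30 (adjusted p = 0.0661), the T cell gene CD3E by 1.25 (adjusted p = 0.309, 1 of 2 control arrays well above background) and the monocyte gene CD14 by -0.60 (adjusted p = 0.268). CD3E passed the filter only through the embelin group, where it was higher.

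**Figure D4:**
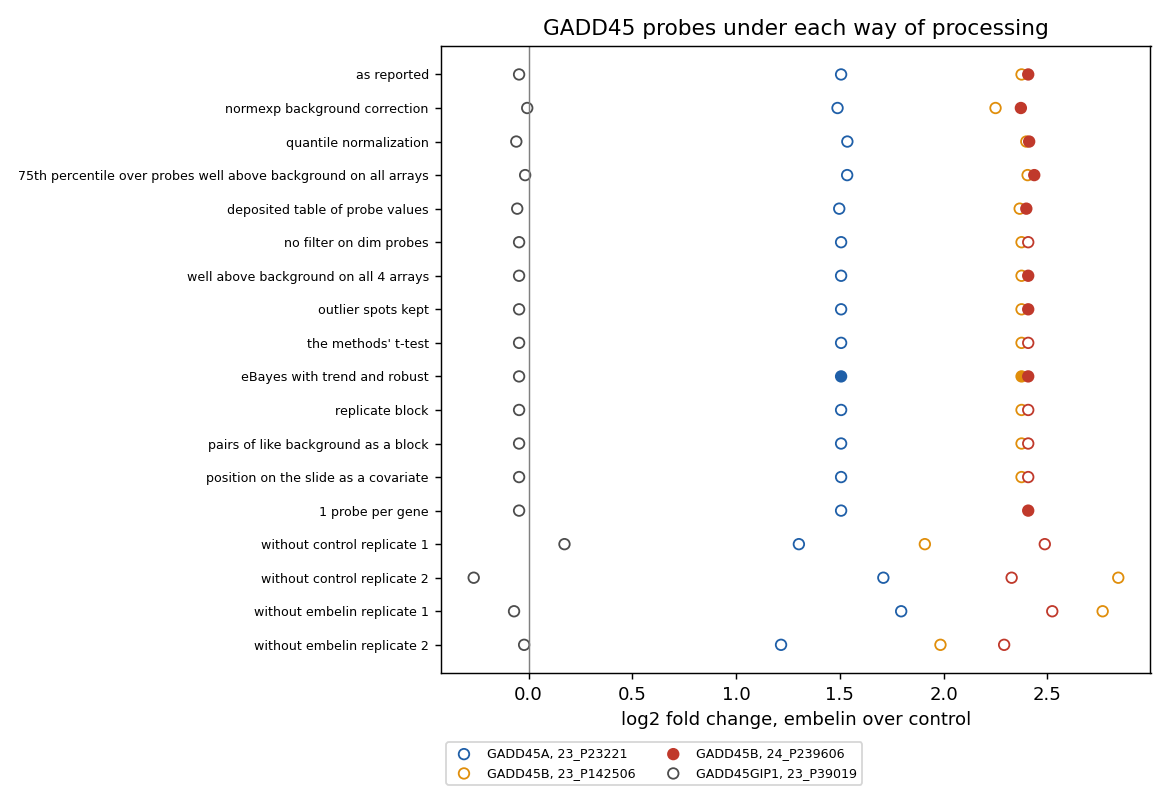
Log2 fold change of the 4 tested GADD45 probes as reported and under each alternative way of processing (filled, adjusted p under 0.05). The changes of GADD45A and of both GADD45B probes stay above 1 wherever they were run, from 1.22 to 1.80, 1.91 to 2.84 and 2.29 to 2.52 (the first GADD45B probe has no value with 1 probe per gene), and GADD45GIP1 runs from -0.26 to 0.17. Other filters, tests, blocks and the covariate could not move these values.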

How the data were processed

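Arrays of 2 control and 2 embelin samples were used. The authors deposited the Cy3 intensity of each spot written by Agilent Feature Extraction (10.7.3.1 per the file headers), background-subtracted and not normalized between arrays, and a table of the same intensities averaged by probe. Here spots marked as outliers (47 to 743 an array) were left out, spots of a probe were averaged, and each array was scaled to a common 75th percentile over its non-control spots, with a floor of 1 before log2 was taken. Probes that the scanner software called well above background on both arrays of a group, in 1 group or both, entered the tests (26146, of which 26145 had enough values).

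Groups were compared with limma 3.58.1 in R 4.3.3, by lmFit and then eBayes (prior of 2.31 degrees of freedom), every probe separately, with Benjamini-Hochberg adjustment over all tested probes. The median log2 fold change over all probes was -0.04. Of the probes, 28595 were named by accession in a current table, 2341 through another probe and 19302 as in the files. For lists, a gene stood by its brightest kept probe. No spot was saturated, and precision is limited by the number of arrays. The fit was tested on simulated data.

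The members, gene lists and tests were chosen with earlier results of these data known. Genes named were all members, the called genes of each list (at most the 4 largest in each direction), the 3 largest differences in a list with fewer than 3 called genes, every gene of a list of at most 4, and the 3 genes nearest in pattern to each member probe. The alternatives were other background correction, scaling, filters, tests, blocks and covariates, and each array left out. Positions in the files are on another build and were not used.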

Additional observations from a re-analysis of the deposited data

How the results depend on the processing

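The log2 fold changes of GADD45A and of both GADD45B probes kept their direction under all alternatives run, except that the first GADD45B probe has no value with 1 probe per gene, where the brighter one stands for the gene. Most alternatives could not change that direction. Other filters and tests leave a log2 fold change as it is, and so do the blocks and the covariate in this balanced design. No member spot was marked as an outlier, so keeping such spots moved none of these values. Where groups do not overlap, leaving out 1 array cannot turn the sign. Only other background correction and other scaling could have turned it. The count of member probes called, and of all probes called, did not keep its side of the threshold. No probe passed the adjustment, 0 higher and 0 lower, 0 of the member probes and 0 of the listed genes, without the filter on dim probes, by the methods' t-test, with pairs of like background as a block, with the position on the slide as a covariate, with the replicate block, and with any 1 array left out. In those fits the second GADD45B probe stayed at 2.41 (2.29 to 2.52 with 1 array left out), with an adjusted p of 0.530, 0.209, 0.219, 0.122 and 0.0851 in that order and 0.0761 to 0.198 with 1 array left out. At 2-fold and unadjusted p under 0.05, the methods' t-test called 784 probes higher and 608 lower, with 1 member probe among them (the second of GADD45B, while GADD45A and the first GADD45B probe were lost), and the other such fits 1055 to 1688 higher and 761 to 1538 lower. Fits with trend and robust called 3 member probes, with GADD45A at 1.51 (adjusted p = 0.0243) and the first GADD45B probe at 2.38 (adjusted p = 0.0327). They called 743 probes higher and 553 lower, and 23 listed genes instead of 9.

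Of all probes, 217 were called higher and 65 lower as reported. With normexp background correction these were 541 and 278 (16 listed genes), with the filter on all 4 arrays 476 and 292 (15 listed genes), with the deposited table of probe values they came to 132 and 26, and with outlier spots kept 143 and 27. The count lower was 31 with quantile normalization, 98 with the percentile taken over detected probes, and 99 with 1 probe per gene. GADD45GIP1 ran from -0.26 to 0.17 with 1 array left out, and its sign turned without the first control array. The cause of these differences was not tested. Where 1 array remained in a group, its spread was assumed to be that of the other group. The replicate numbers were not shown to pair the samples: same-numbered samples had deviations correlated at 0.21 over 2 pairs. In this balanced design the replicate block cannot move a log2 fold change, and with it the adjusted p of the second GADD45B probe went from 0.0320 to 0.0851 and no probe was called.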
